A study of Mus musculus with 9 samples.

Results

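Transcripts of the vesicle coats and of the early secretory pathway were followed in mouse muscle after knockdown of the ubiquitin ligase gene Ubr4. The genes were those whose symbol begins with Sec followed by a number, those named Cop for a coatomer subunit, and those named Trappc followed by a number, which gave 45 of the 23231 genes in the deposited table. By role they comprised 11 genes of the COPII coat and its exit sites, 8 of the COPI coat, 10 of the TRAPP complexes, 6 of the protein translocation channel, 2 of signal peptidase, 3 of the Sec22 family, 4 Sec14-like genes and Sec1. The channel, the peptidase, the Sec14-like genes and Sec1 are secretory by name or function but are not coat proteins, and Sec1 is a gene of the fucosyltransferase family by background knowledge.

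The tissue was the tibialis anterior, a fast hindlimb muscle, of C57BL/6 mice aged 6 months, and all samples had been electroporated with small interfering RNA (siRNA). Of the 9 RNA libraries, 3 had received construct 7 against Ubr4, 3 had received construct 5 against Ubr4 and 3 had received a non-targeting siRNA, called the controls here. Expression was given as FPKM, in which fragments are divided by gene length and by library depth. Comparisons between different genes are therefore per length and depend on the gene lengths used for the deposited values. Levels in different libraries also depend on which other transcripts each library holds, and changes are therefore given as deposited and, where it matters, after rescaling. Whether the samples are separate animals is not given in the labels, so p-values measure the spread between these samples, which may be technical.

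Proteins that leave a cell or enter its membranes are threaded into the endoplasmic reticulum through the Sec61 channel, and signal peptidase removes their leader. COPII-coated vesicles then carry them towards the Golgi, TRAPP complexes tether vesicles and activate Rab GTPases, and COPI-coated vesicles return receptors and escaped resident proteins. In muscle fibres these steps supply the sarcolemma and its receptors, and in fibroblasts of the same tissue they export collagen.

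Of the 45 genes, 41 had a mean of at least 1 FPKM over all libraries and were tested. Log2 changes below are differences of log2(FPKM + 1), which understate the change of genes with low levels. Each was fitted with limma over all 9 libraries, and a gene was called at a Benjamini-Hochberg adjusted p below 0.05 over the 10794 genes tested. The 4 untested genes were Sec16b, Sec14l2, Sec1 and Sec14l4. Just above the limit of 1 FPKM stood Sec22a with a mean of 1.52 FPKM and Sec22c with a mean of 1.75 FPKM. Just below it stood Sec16b with a mean of 0.546 FPKM.

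Library depth, recovered from the spacing of small FPKM values, was 29286572 to 45525751 reads per library, so that 3 reads on a gene of 1 kilobase correspond to 0.0659 to 0.102 FPKM, a limit that covers counting error only. Ubr4 itself fell in both siRNA groups, to 2.63 ± 0.412 FPKM (SD, n = 3) with construct 7 and 3.38 ± 0.568 FPKM (SD, n = 3) with construct 5, against 9.06 ± 1.22 FPKM (SD, n = 3) in the controls. In the table as deposited, the median log2 change of all 10794 tested genes was 0.02 for construct 7 and 0.13 for construct 5 against the controls, and 76.7% of all tested genes were above 0 with construct 5. The construct 5 libraries also held more transcript of non-muscle cells: the summed level of 18 macrophage markers was 263 to 462 FPKM with construct 5, against 159 to 231 FPKM in the controls, and the mean of 18 of 18 markers was higher. The sum of 18 fibroblast and matrix genes was 799 to 1160 FPKM with construct 5, against 616 to 739 FPKM in the controls, again with 18 of 18 higher in mean, and that of 10 tendon and cartilage genes was 128 to 197 FPKM, against 57.8 to 80.9 FPKM in the controls. With construct 7 these sums were 126 to 208, 471 to 580 and 41.7 to 117 FPKM. In mean 4 of 18 macrophage, 1 of 18 matrix and 3 of 10 tendon genes were higher than in the controls. All construct 7 libraries lay below all controls in the matrix sum, the reverse of construct 5. With construct 5, limma called 3 of 16 tested macrophage, 1 of 18 matrix and 2 of 9 tendon genes, where 5.27% of all tested genes were called. Sums of endothelial, adipocyte, Schwann cell and erythroid markers overlapped between construct 5 and the controls, although in mean 7 of 7 adipocyte markers were higher and 0 of 8 Schwann cell markers were. The muscle fibre markers summed to 58520 to 72590 FPKM with construct 7 and 62430 to 70350 FPKM with construct 5, against 70250 to 73640 FPKM in the controls. No marker was at 0 in all libraries, and the part of the other cells in the results below was not tested. In RNA of whole muscle, fewer cells of a type and less RNA per cell cannot be told apart.

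Levels spanned a wide range even between subunits of 1 coat. The highest mean belonged to Sec13, an outer COPII subunit that is also part of the nuclear pore, at 33.1 FPKM, followed by Trappc2l, a small TRAPP core subunit, at 28.7 FPKM, Copb2, the beta-prime subunit of COPI, at 26.3 FPKM, and Trappc6b, another TRAPP core subunit, at 22.3 FPKM. Within COPI, Copb2 and Cope, the epsilon subunit, at 19.3 FPKM stood above the gamma subunits Copg and Copg2 at 4.69 and 5.13 FPKM. Paralogues differed as well: in the translocation channel the pore subunit Sec61a2 averaged 8.33 FPKM and its paralogue Sec61a1 3.64 FPKM over all libraries. Such rankings depend on gene length. In the GENCODE M21 annotation, exons covered 11011 bases for Copg, 3353 for Cope, 6732 for Sec61a1 and 4572 for Sec61a2. The part of length in these levels was not tested. Between the highest and lowest of the 9 libraries the members differed by a median of 1.39 times, least for Trappc2l (1.14 times) and most for Trappc6a (2.75 times), Sec22c (2.36 times) and Sec24d (2.32 times).

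**Figure D1:**
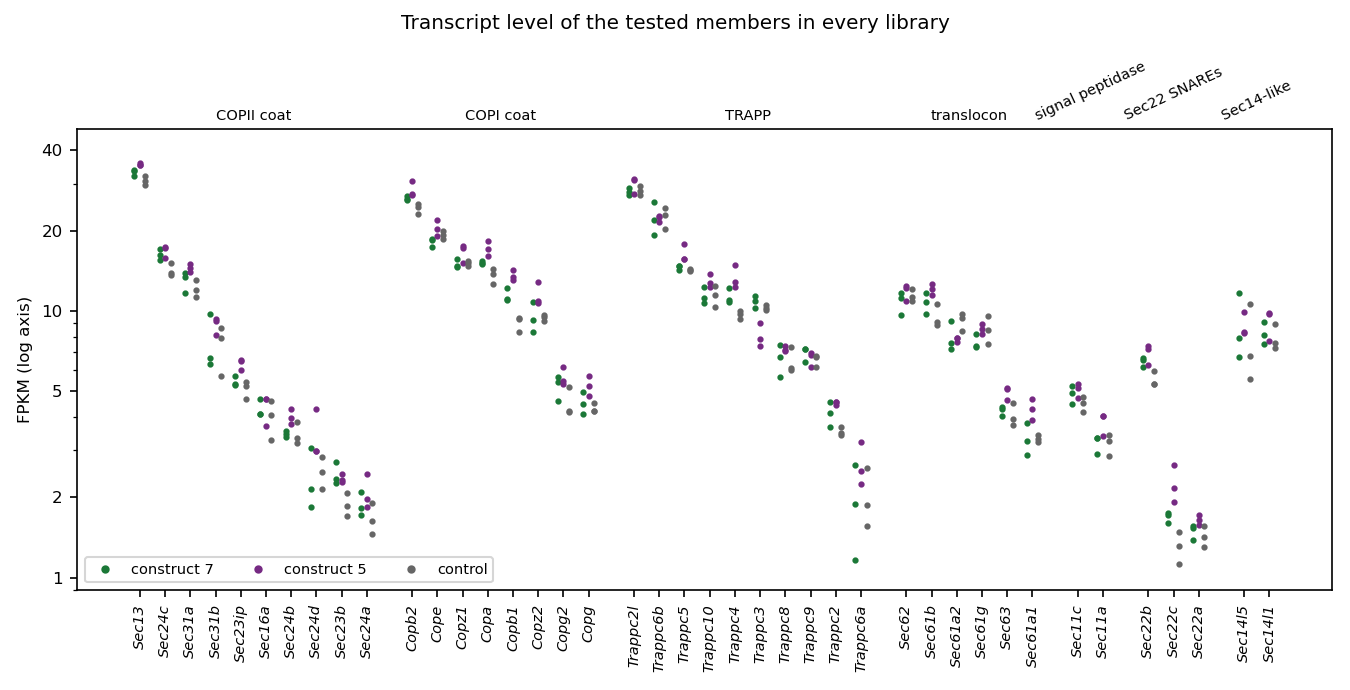
FPKM (log axis) of each of the 41 tested genes in every library, grouped by role, with construct 7 left, construct 5 in the middle and controls right for each gene. The spread between genes, with means between 1.52 and 33.1 FPKM, is far wider than the spread between libraries of a gene, whose median ratio of highest to lowest is 1.39.

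With construct 5 more of these genes stood above the controls than below, and 5 of the 41 passed the test. Copb1, Copa, Sec22c and Trappc4 rose and Trappc3 fell, 12.2% of the tested members, where 5.27% of all tested genes were called. In the upward direction the share was 9.76% of members, beside 4.67% of all genes, and in the downward direction 0.602% of all genes were called. With construct 5, 38 of 41 members lay above 0, beside 76.7% of all genes, with a median log2 change of 0.22, beside 0.13 over all genes. All construct 5 libraries lay above all controls for 21 members, or 51.2% (background 33%), and below them for Sec61a2 and Trappc3, or 4.88% (background 5.19%). Once the libraries were brought to a common median ratio, 31 of 41 members were above 0, beside 52.4% of all genes. Their median was then 0.09 beside 0.01 over all genes. After this scaling 2 members were called, Copb1 higher and Trappc3 lower, where 0.723% of all genes were called. The count changed when single libraries were left out. No member was called without any 1 of the 3 controls, construct 5 replicate 1 or construct 7 replicate 3. Leaving out construct 5 replicate 2 gave 1 call, and leaving out construct 7 replicate 1 gave 3. Each of these fits also had fewer libraries, so lower power and the part of a single library cannot be told apart. Construct 5 replicate 1 was the highest of all 9 libraries for 24 of the 41 members, and control replicate 1 was the lowest for 16. The same counts over all tested genes were not made, so these are not a trait of the members. Of all libraries, these 2 also held the lowest (61%) and highest (67.3%) share of FPKM in the 100 most abundant genes. The part of that share in the counts was not tested.

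With construct 7 no member was called, 7 had an unadjusted p below 0.05 (9.47% of all tested genes did), and the lowest adjusted p was 0.2778, for Copb1. In this comparison 0.0556% of all tested genes were called. Of the 41 members 30 were above 0, beside 57% of all genes, with a median log2 change of 0.05 beside 0.02 over all genes. All construct 7 libraries lay above all controls for 9 members, or 22% (background 10.5%), and for no member did all lie below (background 6.26%). For the mean of both constructs none was called (0.00926% of all genes) while 15 had an unadjusted p below 0.05 (19.1% of all tested genes did). All 6 siRNA libraries lay above all 3 controls for 9 members, or 22% (background 8.04%), and below them for no member (background 1.45%). The 9 were Sec13, Sec23b and Sec24c of COPII, Copa, Copb1 and Copb2 of COPI, Trappc4, Sec22b and Sec22c. Both comparisons share the 3 controls, so agreement between the constructs is not independent.

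**Figure D2:**
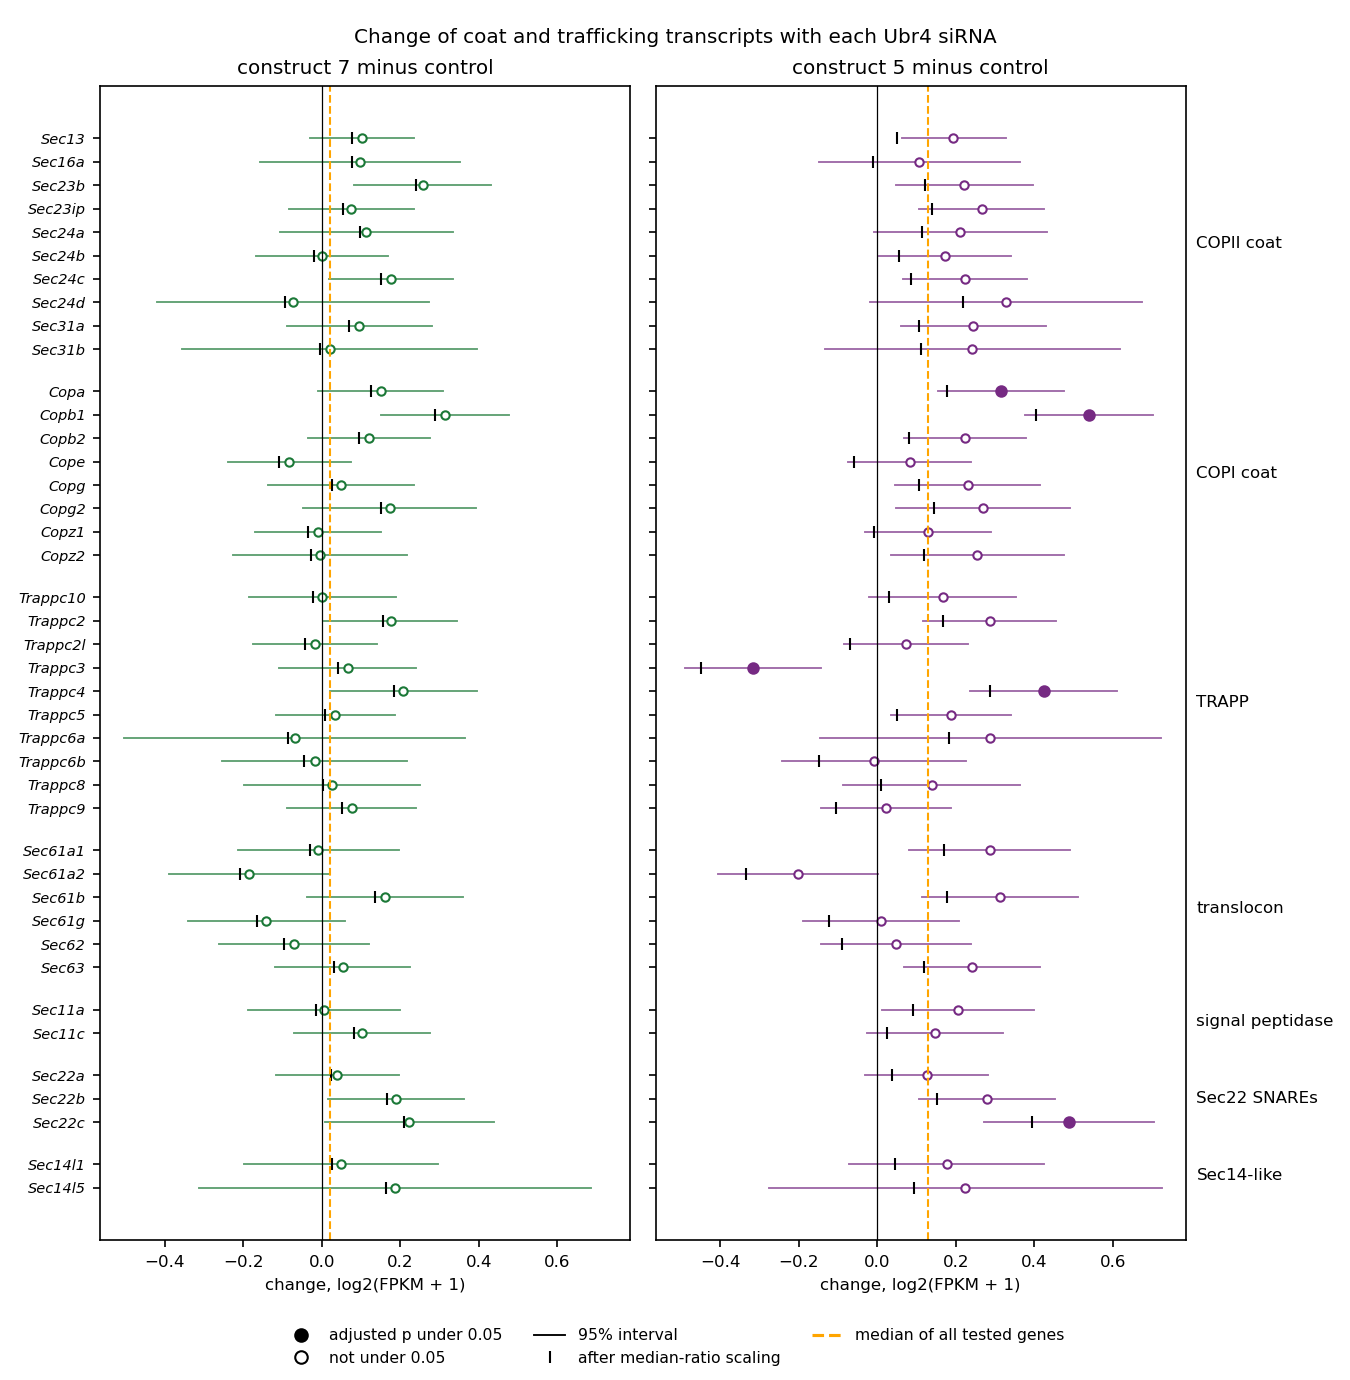
Log2 change (points) with its 95% interval (lines) of each tested gene for construct 7 minus control (left) and construct 5 minus control (right), by role. Filled points mark the 5 genes with an adjusted p below 0.05, ticks the change after median-ratio scaling and dashed lines the median of all tested genes, 0.02 and 0.13. Copb1 reaches 0.54 with construct 5 and Trappc3 lies lowest at -0.32, with no filled point for construct 7.

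The COPI coat held the largest change of log2(FPKM + 1) among the members, that of Copb1, and 2 of the 5 called genes. By the ratio of mean FPKM with construct 5 to the controls, Sec22c stood higher, at 1.72 against 1.5 for Copb1. Copb1, the beta subunit, stood at 11.1, 12.2 and 11 FPKM with construct 7, 14.2, 13.1 and 13.4 FPKM with construct 5 and 8.31, 9.37 and 9.34 FPKM in the controls. The 3 groups did not overlap, with construct 7 between construct 5 and the controls. Its log2 change was 0.31 (SE 0.0724, adjusted p = 0.2778) for construct 7 and 0.54 (SE 0.0724, adjusted p = 0.03442) for construct 5, a 1.5-fold level, and it was the one member that rose both as deposited and after median-ratio scaling (0.40, adjusted p = 0.04165) or quantile normalization (0.42, adjusted p = 0.03924). Copb1 kept its call in 9 of 16 alternative settings. The difference between the constructs was -0.23 (95% interval -0.39 to -0.06, adjusted p = 0.1253).

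Copa, the alpha subunit of the outer layer of the COPI coat, stood at 15.1, 15.3 and 15.02 FPKM with construct 7, 18.3, 17.1 and 16.02 FPKM with construct 5 and 12.6, 14.3 and 13.7 FPKM in the controls. These groups were also separate and in the same order. The log2 change was 0.15 (SE 0.0712, adjusted p = 0.5564) for construct 7 and 0.32 (SE 0.0712, adjusted p = 0.04895) for construct 5, and the call was lost under median-ratio scaling (0.18, adjusted p = 0.1351) and kept in 3 of 16 alternatives.

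Copb2, which forms the outer layer together with Copa, stood at 26.2, 26.9 and 25.98 FPKM with construct 7, 30.7, 27.4 and 27.2 FPKM with construct 5 and 22.98, 25.1 and 24.4 FPKM in the controls. Both siRNA groups lay above the controls without passing the test, with 0.12 (SE 0.0689, adjusted p = 0.6318) for construct 7 and 0.22 (SE 0.0689, adjusted p = 0.07698) for construct 5. Cope, which binds Copa, overlapped between the construct 5 libraries (19.1 to 21.9 FPKM) and the controls (18.6 to 19.9 FPKM) and gave a log2 change of 0.08 (95% interval -0.07 to 0.24). As deposited 8 of 8 COPI genes were above 0 with construct 5, but 6 of 8 after median-ratio scaling and 7 of 8 after quantile normalization. Copz1 and Cope were the genes below 0 after median-ratio scaling (-0.01 and -0.06). The other COPI genes, Copg, Copg2, Copz1 and Copz2, gave 0.13 to 0.27 for construct 5 and did not pass. Exons of Copg2, the highest of these, share 17.8% of their bases with Mest on the opposite strand. Mest gave 0.74 (SE 0.392, adjusted p = 0.217) for construct 5, and its part in the Copg2 values was not tested. With construct 7, 5 of 8 COPI genes were above 0.

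Promoters are shown for 3 members that share a motif and for Trappc3, a choice made after their values and matches were seen. RefSeq promoters of build GRCm38.p6 were used, which run from 250 bases before to 50 bases after the start. For the members, 43 promoters of 39 of the 45 genes were searched. Promoters of Trappc4, Trappc8, Trappc9, Sec61a1, Sec11c and Sec14l4 were not searched, which does not show that they lack an entry. The shares of members and of all genes given below may therefore rest on unlike choices of promoters. Both strands were searched for TGACGTGG, the core of the unfolded protein response element that ATF6 and XBP1 are known to bind, and for the endoplasmic reticulum stress response element, CCAAT and CCACG separated by any 9 bases. TGACGTGG, or CCACGTCA where it lies on the opposite strand, was in 4 of the 43 promoters, those of Copb1, Copb2, Sec24d and Sec16b, and in 0.676% of the 32851 promoters of all genes. The longer element was in none of the 43 and in 0.119% of all. Copb1 and Copb2 carried the core 28 and 7 bases before the start on the opposite strand, and Sec24d carried it 26 bases before the start. Capitals mark the match, the sequences are printed 5′ to 3′ on the strand of the gene. Trappc3, the member that fell, has no match, and neither have Copa and Sec22c, which rose. The promoter of Trappc4, which also rose, was not searched. Of the 3 carriers printed, Copb1 was the one called.
Copb1 (chr7:114254631-114254930, minus strand): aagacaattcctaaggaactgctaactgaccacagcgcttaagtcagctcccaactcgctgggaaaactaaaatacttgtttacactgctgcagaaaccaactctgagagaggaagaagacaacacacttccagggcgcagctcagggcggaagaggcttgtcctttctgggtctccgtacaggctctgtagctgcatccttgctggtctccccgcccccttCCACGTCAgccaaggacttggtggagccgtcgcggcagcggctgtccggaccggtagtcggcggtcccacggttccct
Copb2 (chr9:98563481-98563780, plus strand): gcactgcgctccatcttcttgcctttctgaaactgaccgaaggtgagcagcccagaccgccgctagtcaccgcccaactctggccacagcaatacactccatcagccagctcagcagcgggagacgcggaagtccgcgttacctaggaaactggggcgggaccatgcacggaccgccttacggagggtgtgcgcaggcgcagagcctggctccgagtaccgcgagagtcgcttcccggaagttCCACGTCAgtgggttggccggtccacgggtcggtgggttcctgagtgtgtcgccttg
Sec24d (chr3:123267246-123267545, plus strand): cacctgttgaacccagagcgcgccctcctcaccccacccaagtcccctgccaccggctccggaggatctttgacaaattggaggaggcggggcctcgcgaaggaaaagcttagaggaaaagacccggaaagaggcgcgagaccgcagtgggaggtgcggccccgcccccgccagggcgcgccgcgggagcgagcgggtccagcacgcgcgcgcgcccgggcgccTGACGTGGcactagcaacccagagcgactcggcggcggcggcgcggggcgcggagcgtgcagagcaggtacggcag
Trappc3 (chr4:126262155-126262454, plus strand): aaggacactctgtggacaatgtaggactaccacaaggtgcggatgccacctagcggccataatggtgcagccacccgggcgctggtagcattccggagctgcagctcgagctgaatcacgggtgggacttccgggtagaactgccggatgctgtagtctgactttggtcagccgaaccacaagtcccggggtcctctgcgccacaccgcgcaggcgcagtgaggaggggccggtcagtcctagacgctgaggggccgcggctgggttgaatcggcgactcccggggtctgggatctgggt
These letters describe the windows only, since binding was not measured.

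No COPII gene passed the test, although 10 of 10 tested members were above 0 with construct 5 as deposited (9 of 10 after median-ratio scaling or quantile normalization) and 9 of 10 with construct 7 (7 of 10 after either). Sec13 stood at 33.8, 33.4 and 32.1 FPKM with construct 7, 35.2, 35.1 and 35.7 FPKM with construct 5 and 31.98, 30.6 and 29.8 FPKM in the controls. Every siRNA library was above every control, with log2 changes of 0.10 (SE 0.0591, adjusted p = 0.6368) and 0.19 (SE 0.0591, adjusted p = 0.0754) for constructs 7 and 5. Sec23ip, a binding partner of the inner coat at exit sites, had the smallest p of the COPII genes with construct 5: it stood at 6.55, 5.99 and 6.49 FPKM with construct 5, against 4.69, 5.23 and 5.42 FPKM in the controls. Its groups were separate, and its change was 0.27 (SE 0.0706, adjusted p = 0.05793).

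Sec23b, an inner coat subunit that stimulates the GTPase Sar1, was the COPII gene with the smallest p for construct 7. It stood at 2.34, 2.70 and 2.26 FPKM with construct 7, 2.45, 2.32 and 2.28 FPKM with construct 5 and 1.71, 2.07 and 1.85 FPKM in the controls. The siRNA groups overlapped each other and both lay above the controls, with 0.26 (SE 0.0772, adjusted p = 0.3622) for construct 7 and 0.22 (SE 0.0772, adjusted p = 0.0985) for construct 5. Among the cargo adaptors, Sec24c was the most abundant at a mean of 15.7 FPKM and was above the controls in every siRNA library. Sec24d, whose promoter is printed above, stood at 1.84, 3.05 and 2.14 FPKM with construct 7, 2.97, 4.28 and 2.98 FPKM with construct 5 and 2.49, 2.83 and 2.15 FPKM in the controls. Its change of 0.33 (SE 0.154, adjusted p = 0.1738) with construct 5 did not pass, with replicate 2 well above the other libraries, and with construct 7 it was -0.07 (95% interval -0.42 to 0.27). The scaffold gene Sec16b, at 0.377, 0.462 and 0.421 FPKM with construct 7, 0.648, 0.767 and 0.797 FPKM with construct 5 and 0.460, 0.440 and 0.545 FPKM in the controls, was too low for the test. Its paralogue Sec16a ranged from 3.27 to 4.67 FPKM with overlapping groups. The cargo adaptors Sec24a, Sec24b and Sec24c and the outer coat genes Sec31a and Sec31b gave 0.17 to 0.25 for construct 5.

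TRAPP subunits moved in opposite directions with construct 5: 1 rose, 1 fell and 8 did not pass, with 8 of 10 above 0 as deposited and 6 of 10 after median-ratio scaling or quantile normalization. Trappc4, a core subunit that contacts the Rab GTPase, stood at 12.2, 11.01 and 10.8 FPKM with construct 7, 14.9, 12.3 and 12.8 FPKM with construct 5 and 9.72, 9.30 and 9.98 FPKM in the controls. The groups were separate, construct 5 highest and the controls lowest, with log2 changes of 0.21 (SE 0.0835, adjusted p = 0.4761) and 0.42 (SE 0.0835, adjusted p = 0.0406) for constructs 7 and 5. The call for construct 5 was lost under median-ratio scaling (0.29, adjusted p = 0.08281) and kept in 5 of 16 alternatives. Exons of Trappc4 share 18.9% of their bases with Rps25, a ribosomal protein gene on the opposite strand, and whether counting used strand is not given in the sources used here. Rps25 stood at 206.0, 229.6 and 245.9 FPKM with construct 7, 332.5, 280.9 and 317.5 FPKM with construct 5 and 272.3, 298.6 and 256.2 FPKM in the controls, with changes of -0.28 (adjusted p = 0.413) for construct 7 and 0.17 (adjusted p = 0.2551) for construct 5, and its part in the Trappc4 values was not tested.

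Trappc3, the core subunit known as Bet3 in yeast, was the one member that fell. It stood at 10.2, 11.3 and 10.9 FPKM with construct 7, 7.86, 8.996 and 7.41 FPKM with construct 5 and 10.6, 10.1 and 10.2 FPKM in the controls. All construct 5 libraries lay below all others, while construct 7 overlapped the controls. Its change was -0.32 (SE 0.0775, adjusted p = 0.04996) for construct 5, with 2 of 16 alternatives keeping the call, and 0.07 (95% interval -0.11 to 0.24, adjusted p = 0.8564) for construct 7. Construct 7 minus construct 5 gave 0.38 (SE 0.0775, adjusted p = 0.05296) as deposited and 0.49 (adjusted p = 0.03087) after median-ratio scaling, where 0.732% of all genes were called, so that the constructs differed past the threshold only after such scaling or quantile normalization. Trappc2, the sedlin subunit, stood at 4.56, 4.56 and 4.43 FPKM with construct 5, against 3.47, 3.42 and 3.67 FPKM in the controls, separate but without passing the test (0.29, SE 0.0753, adjusted p = 0.05705). Trappc5 also lay above the controls with construct 5 (0.19, SE 0.0677, adjusted p = 0.1049). Trappc2l and Trappc6b overlapped between all groups, and Trappc6a varied from 1.17 to 3.21 FPKM with SDs of 0.74 with construct 7, 0.5 with construct 5 and 0.527 in the controls. The subunits of the larger TRAPP assemblies, Trappc8, Trappc9 and Trappc10, overlapped between groups, with changes of 0.14, 0.02 and 0.17 for construct 5.

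**Figure D3:**
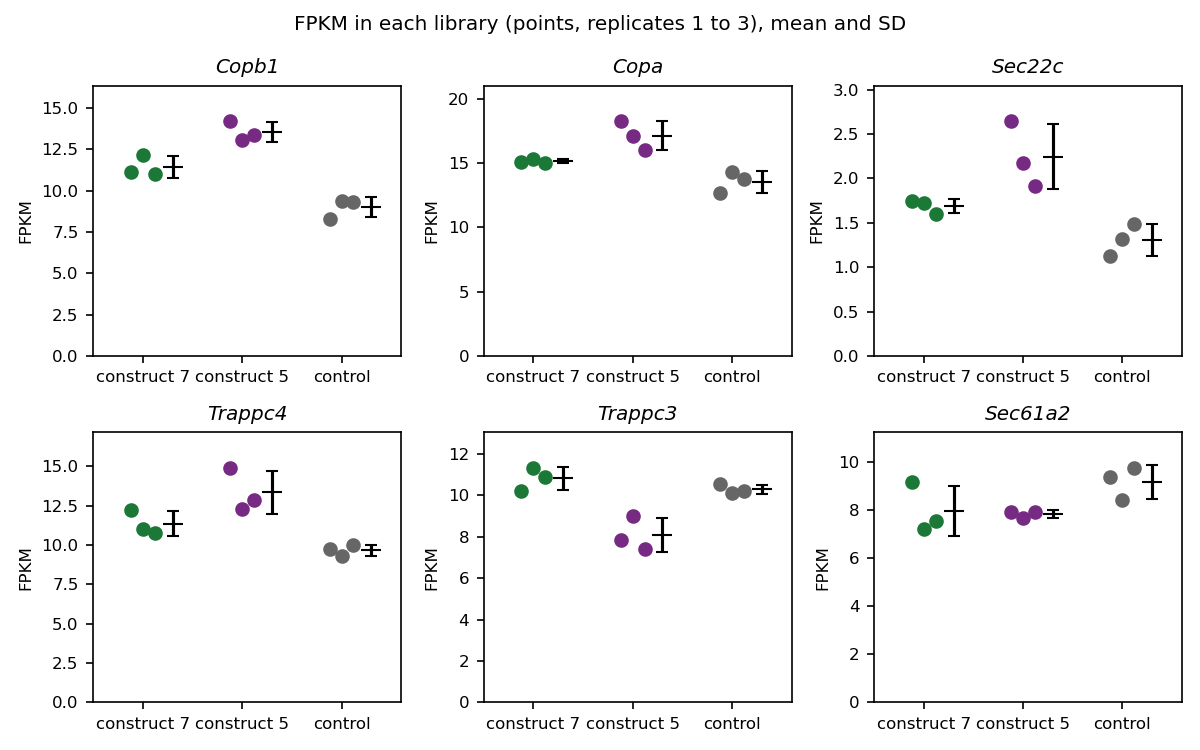
FPKM (vertical axes, from 0) of the 5 called genes and of Sec61a2 in each library (points), with mean and SD (bars), for construct 7, construct 5 and the controls from left to right. Copb1, Copa, Sec22c and Trappc4 are highest with construct 5 and lowest in the controls, whereas Trappc3 is lowest with construct 5, at 7.41 to 8.996 FPKM against 10.1 to 10.6 FPKM in the controls.

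In the translocation channel no gene was called, with 5 of 6 above 0 for construct 5 as deposited and 3 of 6 after median-ratio scaling or quantile normalization. Sec61b, a small subunit beside the pore, had the smallest p for construct 5. It stood at 12.6, 11.4 and 12.04 FPKM with construct 5, against 9.10, 10.6 and 8.83 FPKM in the controls. The groups were separate and the change was 0.31 (SE 0.0881, adjusted p = 0.06394). The pore paralogues stood on opposite sides of the controls with construct 5. Sec61a1 stood at 2.87, 3.80 and 3.26 FPKM with construct 7, 4.28, 4.67 and 3.88 FPKM with construct 5 and 3.30, 3.23 and 3.43 FPKM in the controls. Sec61a2 stood at 9.16, 7.22 and 7.56 FPKM with construct 7, 7.92, 7.66 and 7.94 FPKM with construct 5 and 9.38, 8.40 and 9.76 FPKM in the controls. With construct 5, Sec61a1 lay above and Sec61a2 below all controls, with log2 changes of 0.29 (SE 0.0911, adjusted p = 0.08187) and -0.20 (SE 0.0906, adjusted p = 0.1597). With construct 7 the changes were -0.01 (95% interval -0.21 to 0.20) and -0.18 (95% interval -0.39 to 0.02). Sec61a2 shares 19.9% of its exon bases with Nudt5 on the opposite strand, which stood at 0.497 to 0.966 FPKM over all libraries. Sec62, an accessory subunit and the most abundant at a mean of 11.4 FPKM, overlapped between all groups, and Sec61g overlapped the controls with both constructs. Sec63, which works with Sec62, gave 0.24 (SE 0.0769, adjusted p = 0.08207) for construct 5.

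A ratio of 2 transcripts within a library does not depend on scaling. Of 8 such pairs, 6 were paralogues or alternative subunits. The ratio of Sec61a1 to Sec61a2 was 0.313, 0.526 and 0.431 with construct 7, 0.541, 0.61 and 0.489 with construct 5, and 0.352, 0.385 and 0.352 in the controls. Construct 5 was separate from the controls, with an exact two-sided permutation p of 0.1, the smallest that 3 libraries against 3 can give (0.2667 adjusted over the 8 pairs), while construct 7 overlapped both. The other 5 pairs, Copg to Copg2, Copz1 to Copz2, Sec31a to Sec31b, Sec11a to Sec11c and Trappc6a to Trappc6b, gave exact two-sided permutation p-values of 0.2 to 1 for construct 5 against the controls. The remaining 2 pairs were chosen after their values were seen and are described only. Copb1 to Cope was 0.605, 0.652 and 0.635 with construct 7, 0.647, 0.642 and 0.699 with construct 5, and 0.419, 0.486 and 0.502 in the controls, so both siRNA groups lay above the controls. Trappc4 to Trappc3 was 1.2, 0.971 and 0.987 with construct 7, 1.9, 1.37 and 1.73 with construct 5, and 0.921, 0.921 and 0.978 in the controls, separate for construct 5 and overlapping for construct 7.

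**Figure D4:**
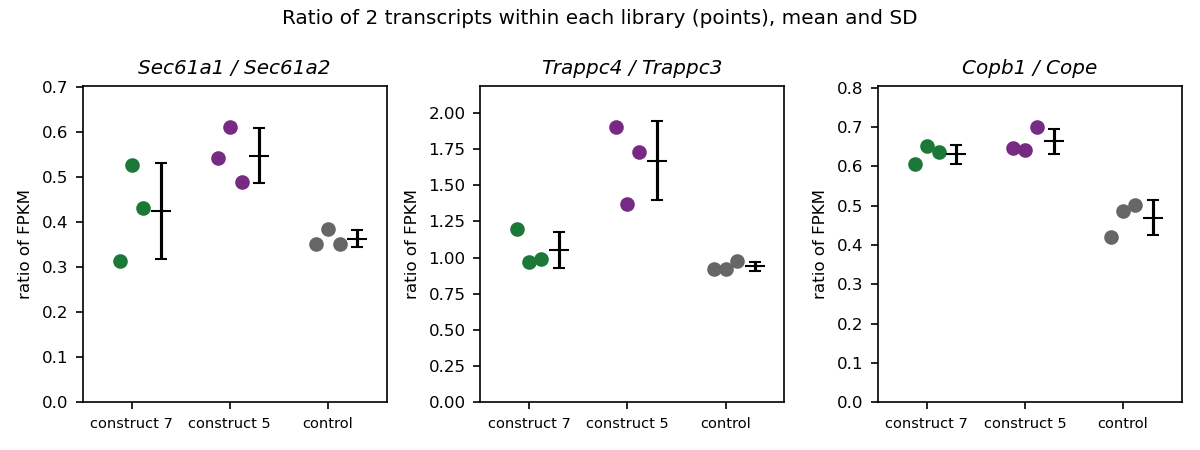
Ratio of FPKM of 2 genes within each library (points; vertical axes from 0) with mean and SD (bars) for construct 7, construct 5 and the controls from left to right. Sec61a1 to Sec61a2 is 0.489 to 0.61 with construct 5 against 0.352 to 0.385 in the controls, and Copb1 to Cope lies above the controls with both constructs.

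In the Sec22 family, Sec22b is the SNARE of vesicles between endoplasmic reticulum and Golgi, and Sec22a and Sec22c are its relatives. With construct 5, 1 of the 3 rose, and 3 were above 0 as deposited and after median-ratio scaling but 2 after quantile normalization. Sec22c stood at 1.75, 1.72 and 1.60 FPKM with construct 7, 2.64, 2.17 and 1.92 FPKM with construct 5 and 1.12, 1.31 and 1.49 FPKM in the controls. Construct 5 was highest, construct 7 intermediate and the controls lowest, without overlap. Its change was 0.22 (SE 0.0962, adjusted p = 0.5088) for construct 7 and 0.49 (SE 0.0962, adjusted p = 0.0406) for construct 5, where the mean FPKM was 1.72 times that of the controls. The call was kept in 4 of 15 alternatives and lost under median-ratio scaling (0.39, adjusted p = 0.05644). Sec22b stood at 6.14, 6.54 and 6.64 FPKM with construct 7, 7.37, 7.17 and 6.25 FPKM with construct 5 and 5.31, 5.33 and 5.94 FPKM in the controls. Both siRNA groups were above the controls and overlapped each other, and neither 0.19 (SE 0.0772, adjusted p = 0.4797) for construct 7 nor 0.28 (SE 0.0772, adjusted p = 0.06108) for construct 5 passed the test.

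The signal peptidase and Sec14-like genes gave no calls. Sec11a and Sec11c, the alternative catalytic subunits of signal peptidase, gave 0.21 (SE 0.0864, adjusted p = 0.1398) and 0.15 (SE 0.0772, adjusted p = 0.2134) with construct 5, and their libraries overlapped the controls. Sec14l1 and Sec14l5, which carry the lipid-binding fold named after yeast Sec14, ranged from 7.25 to 9.83 FPKM and from 5.57 to 11.7 FPKM, and gave 0.18 (95% interval -0.07 to 0.42) and 0.22 (95% interval -0.28 to 0.73) with construct 5. Sec14l2 ranged from 0.0985 to 0.327 FPKM. Sec1 ranged from 0.0753 to 0.359 FPKM, with all siRNA libraries above all controls, at levels too low for the test. Sec14l4 was listed at 0 in 8 libraries and at 0.0189 FPKM in construct 5 replicate 3.

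Directly compared, construct 7 gave lower values than construct 5 for 37 of 41 members as deposited. Of all tested genes only 24.5% were above 0 in this comparison. The members' median log2 difference was -0.14 beside -0.10 over all genes. No member was called, where 1.22% of all genes were, and 14 had an unadjusted p below 0.05 (23.1% of all tested genes did). All construct 7 libraries lay below all construct 5 libraries for 16 members, or 39% (background 22.4%), and above them for Trappc3 alone, or 2.44% (background 3.02%). After median-ratio scaling 14 of 41 members were above 0, beside 49.6% of all genes, and the members' median difference was -0.03. Among the differences that did not pass, Sec61a1 gave -0.30 (95% interval -0.50 to -0.09) and Trappc6a -0.36 (95% interval -0.79 to 0.08).

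A wider list of 114 other genes of the early secretory pathway and of the clathrin adaptors was read in the same fit, 111 of them tested. With construct 5, 13 rose and 1 fell, 12.6% of the list beside the 5.27% of all genes given above, and after median-ratio scaling 2 were called, Spcs3 and Stt3b. The count was 0 when any 1 control, construct 5 replicate 1 or construct 7 replicate 3 was left out. With construct 7 and with the mean of both constructs none was called, with 12 and 32 of the 111 at an unadjusted p below 0.05, where 9.47% and 19.1% of all tested genes were. The list's median change was 0.17 with construct 5, beside 0.13 over all genes, and 0.04 with construct 7, beside 0.02.

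Of 20 genes of COPI and Arf function 4 rose with construct 5: the GTPases Arf4 (0.38, SE 0.0894, adjusted p = 0.04919) and Arf5 (0.49, SE 0.093, adjusted p = 0.0406), the Arf GTPase-activating gene Arfgap3 (0.68, SE 0.153, adjusted p = 0.04861) and the retrieval receptor Kdelr3 (0.44, SE 0.109, adjusted p = 0.04996). Arf5, the most significant of them, stood at 47.8, 43.7 and 37.9 FPKM with construct 5, against 30.8, 29.7 and 30.6 FPKM in the controls, without overlap. Of 20 tethers and Rab genes 3 rose, Rab1 and the Golgi tether subunits Cog1 and Cog3. Rab1, a GTPase that TRAPP complexes activate, stood at 30.5, 29.6 and 31.9 FPKM with construct 7, 30.4, 30.9 and 30.5 FPKM with construct 5 and 25.9, 25.6 and 25.2 FPKM in the controls. Both siRNA groups were above the controls and close to each other, with 0.25 (SE 0.0577, adjusted p = 0.2778) for construct 7 and 0.25 (SE 0.0577, adjusted p = 0.04911) for construct 5, which became 0.11 (adjusted p = 0.3305) after median-ratio scaling.

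Of 19 tested targeting and translocation genes 2 rose with construct 5, Ssr3 of the translocon-associated complex (0.39, SE 0.0917, adjusted p = 0.04919) and Spcs3. Spcs3, a non-catalytic subunit of signal peptidase, stood at 9.85, 10.02 and 9.19 FPKM with construct 7, 15.2, 13.8 and 12.4 FPKM with construct 5 and 8.86, 8.60 and 8.59 FPKM in the controls. Construct 5 lay above both other groups, with 0.14 (SE 0.0786, adjusted p = 0.6227) for construct 7 and 0.61 (SE 0.0786, adjusted p = 0.03442) for construct 5. No other signal peptidase gene was called with construct 5. The non-catalytic Spcs1 and Spcs2 gave 0.14 (SE 0.0966, adjusted p = 0.3286) and 0.16 (SE 0.0691, adjusted p = 0.1508). Libraries of Spcs1 and of the catalytic Sec11a and Sec11c overlapped the controls, while those of Spcs2 lay above them. Stt3b, a catalytic subunit of oligosaccharyltransferase, which attaches glycans to entering proteins, stood at 17.8, 17.9 and 17.1 FPKM with construct 7, 14.1, 13.7 and 13.4 FPKM with construct 5 and 18.9, 21.02 and 19.9 FPKM in the controls. It fell by 0.51 with construct 5 (SE 0.0633, adjusted p = 0.03442), and construct 7 lay between construct 5 and the controls at -0.17 (SE 0.0633, adjusted p = 0.4248). The SNARE gene Bet1l rose (0.40, SE 0.0943, adjusted p = 0.04926), as did Cltc, the clathrin heavy chain (0.30, SE 0.0725, adjusted p = 0.04996; the call was kept in 0 of 16 alternatives, where the adjusted p was 0.051 to 0.2429), and the adaptor subunits Ap3b1 (0.42, SE 0.0779, adjusted p = 0.0406) and Ap3s1 (0.46, SE 0.107, adjusted p = 0.04919). None of 14 tested COPII entry and exit-site genes was called, with Mcfd2, a cargo receptor subunit, lowest in p for construct 5 (0.20, SE 0.078, adjusted p = 0.1252). For construct 7 the smallest p of each group belonged to Cnih, Tmed5, Rab1, Scfd1, Srp54b, Stt3b and Ap3b1, with changes between -0.17 for Stt3b and 0.26 for Ap3b1.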

How the data were processed

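RNA was extracted with Trizol and sequenced with Illumina protocols, per the labels' protocols. The authors deposited 1 table of FPKM values for the 9 libraries; BWA, STAR, HTSeq and the mouse genome mm9 are named in the submitters' processing notes, and versions, annotation and strand are not given in the sources used here. FPKM are not counts, so log2(FPKM + 1) of the 10794 genes with a mean of at least 1 FPKM was fitted with limma 3.58.1 in R 4.3.3 (trend, no covariates, all 9 libraries), with Benjamini-Hochberg adjustment over all of them at 0.05. Alternatives were a pseudocount of 0.1, a filter at 5 FPKM or none, scaling by median ratios or quantiles, the 6 libraries of a comparison alone, a replicate block and each library left out. Depth was recovered from FPKM steps and GENCODE M21 exon lengths: 71.9% to 74.1% of values under 50 reads were whole within 0.1 reads, too few for a count test. The longest transcript of each gene was searched against all GENCODE M21 transcripts with BLAST+ 2.17.0 (at least 95% identity over 200 bases). Copies outside the annotated transcripts were not searched for. Sec61g, Trappc2 and Trappc6b had copies, and Trappc4 shared a stretch of 204 bases with Cenpw. The values of all of these are uncertain, as are those of genes with overlapping exons. Named genes were the called ones, the most abundant and the smallest p of each role, and the 5 largest changes of each comparison. The genes and lists were chosen with earlier results of these data known. The fit was also run on simulated data with independent noise and no shift of whole libraries. That run does not show how the fit behaves under a shift of most genes, as with construct 5. Another 2 genes with such symbols are not reported here. Tables were handled with pandas 2.3.3 and numpy 2.4.6 in Python 3.11.15, and plots drawn with matplotlib 3.10.9.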

Additional observations from a re-analysis of the deposited data

Results flagged for a closer look

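Among the genes of the wider list, 2 differed between the constructs by a direct test, 1.8% of the 111 tested beside 1.22% of all genes. Spcs3 stood at 9.85, 10.02 and 9.19 FPKM with construct 7 and 15.2, 13.8 and 12.4 FPKM with construct 5, a log2 difference of -0.47 (limma, adjusted p = 0.03446, lower in 3 of 3 construct 7 libraries). Stt3b stood at 17.8, 17.9 and 17.1 FPKM with construct 7 and 14.1, 13.7 and 13.4 FPKM with construct 5, a difference of 0.34 (adjusted p = 0.04632, higher in 3 of 3). Spcs3 kept this call in 6 of 16 alternative settings, with adjusted p between 0.02179 and 0.1298, and Stt3b in 4 of 16, between 0.02109 and 0.1475. The cause was not tested.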

How the results depend on the processing

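The 5 members called with construct 5 became 3 with a pseudocount of 0.1, 0 without a filter (where 5 genes in all were called), 3 with a filter at 5 FPKM, 2 under median-ratio scaling, 2 under quantile normalization, 1 with the 6 libraries alone and 0 with a replicate block, and lay between 0 and 5 when each library was left out. The 14 genes of the wider list became 6, 1, 6, 2, 3, 6 and 1 under the same settings in that order, and lay between 0 and 12. Every called gene kept its sign in each alternative that tested it. With construct 7 and with both constructs together no member was called under any alternative run. Between the constructs, the count of 0 became 1 under median-ratio scaling and 1 under quantile normalization and stayed 0 when any library was left out, and the 2 genes of the wider list became 0 without a filter and 0 with the 6 libraries alone, and lay between 0 and 5. Same-numbered samples deviated together by correlations between -0.364 and 0.313. Differently numbered samples were not compared, so these values cannot decide whether the numbers pair the samples. The cause of these shifts was not tested. Precision is limited by 3 libraries a group, and for Sec1, Sec14l2 and Sec14l4 by few reads.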
